A study of Homo sapiens with 9 samples.

Results

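The integrated stress response and the unfolded protein response were read here through 38 named genes of the 20030 in the deposited count table, selected by gene name. They comprised 3 sensors of the endoplasmic reticulum (ER; ERN1, EIF2AK3 and ATF6), 5 transcription factors (ATF4, DDIT3, CEBPB, NUPR1 and XBP1), 4 regulators and feedback genes (TRIB3, CHAC1, SESN2 and PPP1R15A), 6 enzymes of serine and one-carbon metabolism (PSAT1, PHGDH, PSPH, SHMT2, MTHFD2 and ALDH1L2), 2 other amino acid enzymes (ASNS and CTH), 4 amino acid transporters (SLC7A5, SLC3A2, SLC7A1 and SLC38A2), 2 secreted factors (GDF15 and STC2), 9 ER chaperones and foldases (HSPA5, HSP90B1, CALR, PDIA3, PDIA4, PDIA6, DNAJB9, DNAJC3 and SDF2L1) and 3 genes of ER-associated degradation (HERPUD1, EDEM1 and SEL1L). RNA was sequenced from the human hepatocellular carcinoma (HCC) line MHCC97L and from 2 lines derived from it, with 3 libraries per line and 9 in all. MHCC97L-SRC had been grown in rising concentrations of saracatinib, an inhibitor of Src family kinases, until it was stably resistant to 4 μmol/L, and MHCC97L-OXA was stably resistant to 2 μmol/L of oxaliplatin, a platinum drug that damages DNA. All 3 lines share the MHCC97L background and the same serum-containing medium, and each kind of resistance is represented by a single line. The sources used here do not say whether drug was present when the RNA was taken, and the labels do not tie the 3 libraries of a line to separate cultures. The study's text calls its MHCC97L and MHCC97L-SRC measurements independent experiments and does not say so for MHCC97L-OXA, so p-values measure the spread between these libraries, which may be technical.

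In the integrated stress response, kinases that sense amino acid shortage, double-stranded RNA, haem lack or unfolded ER protein phosphorylate the translation factor eIF2. General protein synthesis then slows while the mRNA of ATF4 is translated more, and ATF4 switches on genes of amino acid uptake, serine and asparagine synthesis and, under lasting stress, CHOP (DDIT3). The unfolded protein response adds 2 further ER sensors to the kinase PERK (EIF2AK3): IRE1 (ERN1), which splices the XBP1 mRNA, and ATF6, which is cut to release a transcription factor, and both raise ER chaperones and degradation genes. Phosphorylation, translation, splicing and cleavage are not measured by counts per gene, so the values below are mRNA levels only.

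Libraries held 16970486 to 18209213 counts on genes, and levels are given as CPM, a gene's count relative to the total count of its library, scaled by the trimmed mean of M-values (TMM) over the 9 libraries. A count of 3 in a library corresponded to 0.148 to 0.199 CPM, a limit that covers counting error only. Of the liver carcinoma markers checked, ALB, AFP and TTR were at 0 counts in every library of the 3 lines. EPCAM, APOA1 and SERPINA1 were at most 0.110, 0.265 and 1.73 CPM in any library. Only the epithelial keratins KRT8 and KRT18 were high, from 1600.5 to 3940.5 CPM and from 1095 to 3220 CPM. The leukocyte markers PTPRC and CD3E were also at 0 in all libraries, and the 8 leukocyte, endothelial and fibroblast markers together summed to 120.4 to 186 CPM in MHCC97L, 143 to 186 CPM in MHCC97L-SRC and 254 to 261 CPM in MHCC97L-OXA; their part in the results was not tested. MHCC97L replicate 1 stood apart before any comparison: across 12126 genes, its deviation from the mean of all libraries had a Spearman correlation of -0.78 with the GC content of the transcript, against 0.30 and -0.26 in MHCC97L replicates 2 and 3, 0.19 to 0.70 in MHCC97L-SRC and 0.17 to 0.31 in MHCC97L-OXA. Both comparisons with MHCC97L share this library, and values without it are given beside the members concerned.

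Stretches of promoter are shown for the members whose 250 bases before the transcription start hold a response element of either pathway, and for the 2 members that passed the test. RefSeq promoters (GRCh38.p14; 250 bases before to 50 bases after the start) were at hand for 33 of the 38 members and 27305 genes in all. A gene counted once if any of its promoters held a motif, and the 33 members had 44 promoters. The ER stress element (ERSE) is CCAAT, any 9 bases, then CCACG, on either strand. It was present in 5 of the 33 members (15.2%), which were 4 chaperones or foldases and XBP1, and in 0.0916% of all genes. In the 5 lines that follow the element is in capitals; it reads in the reverse direction in CALR and at the second of 2 places in HSP90B1.
HSPA5 (chr9:125241361-125241439, minus strand): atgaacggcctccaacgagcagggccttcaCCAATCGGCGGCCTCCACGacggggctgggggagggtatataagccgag
HSP90B1 (chr12:103930186-103930369, plus strand): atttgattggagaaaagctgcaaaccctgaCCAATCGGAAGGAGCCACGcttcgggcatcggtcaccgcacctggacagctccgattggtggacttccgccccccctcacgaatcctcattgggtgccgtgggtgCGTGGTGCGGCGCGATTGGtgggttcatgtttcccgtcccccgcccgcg
CALR (chr19:12938359-12938432, plus strand): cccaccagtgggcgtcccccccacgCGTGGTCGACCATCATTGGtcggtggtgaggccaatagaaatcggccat
PDIA6 (chr2:10812823-10812901, minus strand): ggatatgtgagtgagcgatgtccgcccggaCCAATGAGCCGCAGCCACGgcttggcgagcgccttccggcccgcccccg
XBP1 (chr22:28800573-28800651, minus strand): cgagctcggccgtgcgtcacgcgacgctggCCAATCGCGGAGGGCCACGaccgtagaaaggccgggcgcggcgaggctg

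The ATF4 composite motif (TGATGNAAN, either strand) was found in 5 of the 33 members (15.2%), namely ASNS, CHAC1, HERPUD1, SLC3A2 and SLC7A1, and in 4.45% of all genes. In SLC3A2 and SLC7A1 it lay after the start. The other 3 are shown with the motif in capitals.
ASNS (chr7:97872438-97872506, minus strand): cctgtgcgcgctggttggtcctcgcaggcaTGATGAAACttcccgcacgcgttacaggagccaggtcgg
CHAC1 (chr15:40953231-40953299, plus strand): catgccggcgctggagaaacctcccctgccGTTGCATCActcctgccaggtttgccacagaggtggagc
HERPUD1 (chr16:56931935-56932003, plus strand): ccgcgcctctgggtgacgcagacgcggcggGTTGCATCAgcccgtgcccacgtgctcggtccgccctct

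The whole 250 bases before the start are given for GDF15 and STC2. CCACG, the stretch that ends every ERSE, was present on its own or within one in 22 of 33 members (66.7%) and in 42.1% of all genes. The only capitals in these 2 sequences mark it, on the reverse strand, in STC2. Neither the ERSE nor the ATF4 composite was found in either window, and the XBP1 element TGACGTGG was found in 0 of 33 members and in 0.927% of all genes. A match or its absence describes these letters in these windows only.
GDF15 (chr19:18385908-18386157, plus strand): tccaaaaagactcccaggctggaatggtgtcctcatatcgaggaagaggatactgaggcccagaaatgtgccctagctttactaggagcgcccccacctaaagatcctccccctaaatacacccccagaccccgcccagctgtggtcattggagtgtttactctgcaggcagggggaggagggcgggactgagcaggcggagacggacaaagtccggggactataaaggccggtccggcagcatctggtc
STC2 (chr5:173328415-173328664, minus strand): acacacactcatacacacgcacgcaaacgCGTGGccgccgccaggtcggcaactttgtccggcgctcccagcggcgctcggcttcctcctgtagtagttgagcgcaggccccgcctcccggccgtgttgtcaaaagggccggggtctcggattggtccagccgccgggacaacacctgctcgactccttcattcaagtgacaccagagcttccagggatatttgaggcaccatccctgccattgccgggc

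The first question was how the stress genes of each resistant line differed from MHCC97L. In both lines GDF15 and STC2 rose, and they were the members called at an adjusted p under 0.05 by edgeR's quasi-likelihood test (Benjamini-Hochberg over all genes tested). Around them ATF4 mRNA, CEBPB, TRIB3, CHAC1, SESN2, PHGDH, SHMT2 and HERPUD1 lay above MHCC97L in every library of both lines without passing that test. The share of all genes above in both lines was not counted, and shares per line follow. Among the 9 ER chaperones and foldases, SDF2L1 alone had a log2 fold change above 0 in MHCC97L-SRC, where they ran from -2.25 to 0.71. In MHCC97L-OXA they ran from -1.95 to 0.27, with both signs. In MHCC97L-SRC the signs of HSPA5, PDIA3, PDIA6 and DNAJB9 turned without MHCC97L replicate 1.

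All 38 members passed the filter on low counts. In MHCC97L-SRC, 2 members were called, beside 2.13% of the 12037 genes tested. At an unadjusted p under 0.05 with a log2 fold change past 1, 4 members were higher (background 5.74%) and 5 were lower (background 18.9%). The libraries of the 2 lines did not overlap for 11 members that were higher in MHCC97L-SRC (28.9% of members, background 18.7%) and for 1 that was lower (2.63%, background 11.2%). The median log2 fold change of the members was 0.08, that of all genes tested -0.16.

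In MHCC97L-OXA, the 2 called members stood beside 0.953% of the 12064 genes tested. By the unadjusted p and fold, 5 members were higher (background 4.63%) and 2 were lower (background 11.5%). For 14 members (36.8%) every MHCC97L-OXA library exceeded every MHCC97L library, against 19.6% of all genes, and 0 members were below in every library, against 8.42%. The members' median log2 fold change was 0.20 and that of all genes -0.19. An unadjusted p under 0.05 alone was reached by 14 members in MHCC97L-SRC (36.8%, background 29.5%) and 12 in MHCC97L-OXA (31.6%, background 22.4%). With the scaling of DESeq2 in place of TMM, the counts past unadjusted p and fold in MHCC97L-SRC became 7 higher and 5 lower.

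**Figure D1:**
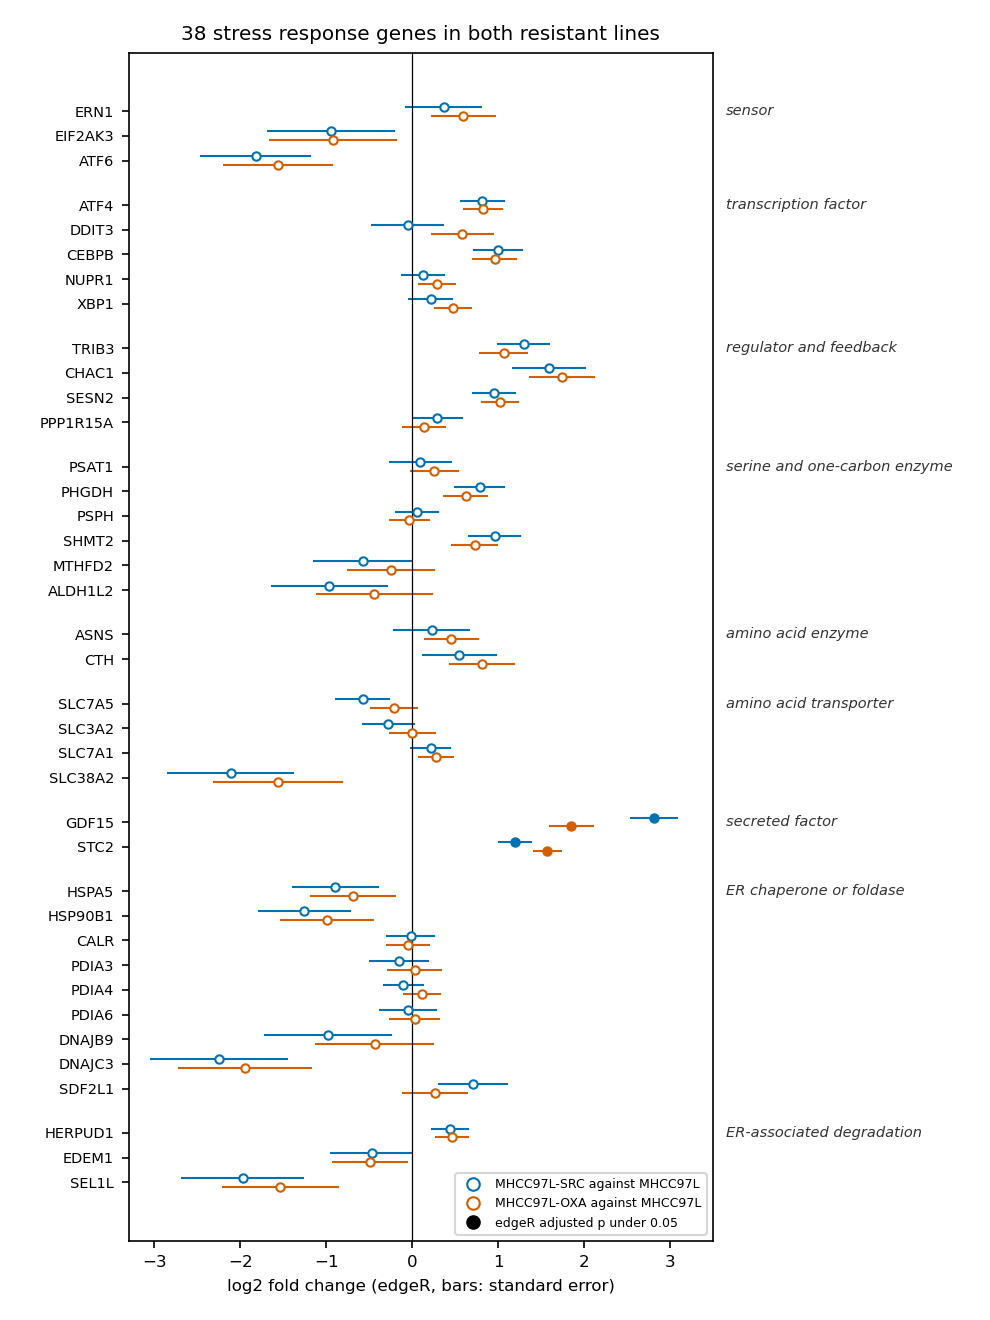
Log2 fold change of each of the 38 members in MHCC97L-SRC (blue) and MHCC97L-OXA (orange) against MHCC97L, by role; bars are the standard error of the edgeR fit and filled points have an adjusted p under 0.05. GDF15 and STC2 are filled in both lines, and the widest bars belong to members such as DNAJC3, SLC38A2 and EIF2AK3 that varied most among the MHCC97L libraries.

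GDF15 encodes a secreted cytokine of the TGF-β superfamily that acts on appetite through the receptor GFRAL and is a known ATF4 and p53 target. It measured 10.6, 15.0 and 13.4 CPM in the MHCC97L libraries, 82.5, 112 and 87.3 CPM in MHCC97L-SRC and 48.3, 51.1 and 46.7 CPM in MHCC97L-OXA. The 3 lines did not overlap, with MHCC97L lowest and MHCC97L-SRC highest. The fold change was 7.03 in MHCC97L-SRC (log2 2.81, SE 0.28, edgeR adjusted p = 0.00597) and 3.62 in MHCC97L-OXA (log2 1.85, SE 0.26, edgeR adjusted p = 0.0271). These values rest on 214 to 255 counts per MHCC97L library and 824 to 1699 counts per library of the resistant lines. In bulk RNA, more cells with the transcript and more transcript per cell cannot be told apart.

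STC2 encodes stanniocalcin 2, a secreted glycoprotein that inhibits the protease PAPP-A and is induced by ER stress. Its MHCC97L libraries were close together at 87.1, 91.9 and 83.7 CPM. It reached 205, 219 and 197 CPM in MHCC97L-SRC and 262, 284 and 266 CPM in MHCC97L-OXA. Again the lines did not overlap, but here MHCC97L-OXA was highest. The fold change was 2.29 in MHCC97L-SRC (log2 1.20, SE 0.20, edgeR adjusted p = 0.0236) and 2.98 in MHCC97L-OXA (log2 1.58, SE 0.17, edgeR adjusted p = 0.0117).

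Without MHCC97L replicate 1, GDF15 and STC2 kept their calls in both lines, at a log2 fold change of 2.73 (GDF15) and 1.25 (STC2) for MHCC97L-SRC against 1.83 (GDF15) and 1.68 (STC2) for MHCC97L-OXA. GDF15 in MHCC97L-SRC passed under every alternative run, with edgeR adjusted p up to 0.034 when a library was left out. The STC2 call in MHCC97L-SRC was lost without MHCC97L replicate 3 (edgeR adjusted p = 0.126) or without any 1 of the MHCC97L-SRC libraries (0.122 to 0.167). In MHCC97L-OXA the calls of GDF15 and STC2 were lost without MHCC97L replicate 3 (edgeR adjusted p = 0.127 and 0.0969) or any 1 MHCC97L-OXA library (0.202 to 0.231 and 0.119 to 0.16), with log2 fold changes that stayed between 1.83 and 1.89 and between 1.55 and 1.60.

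**Figure D2:**
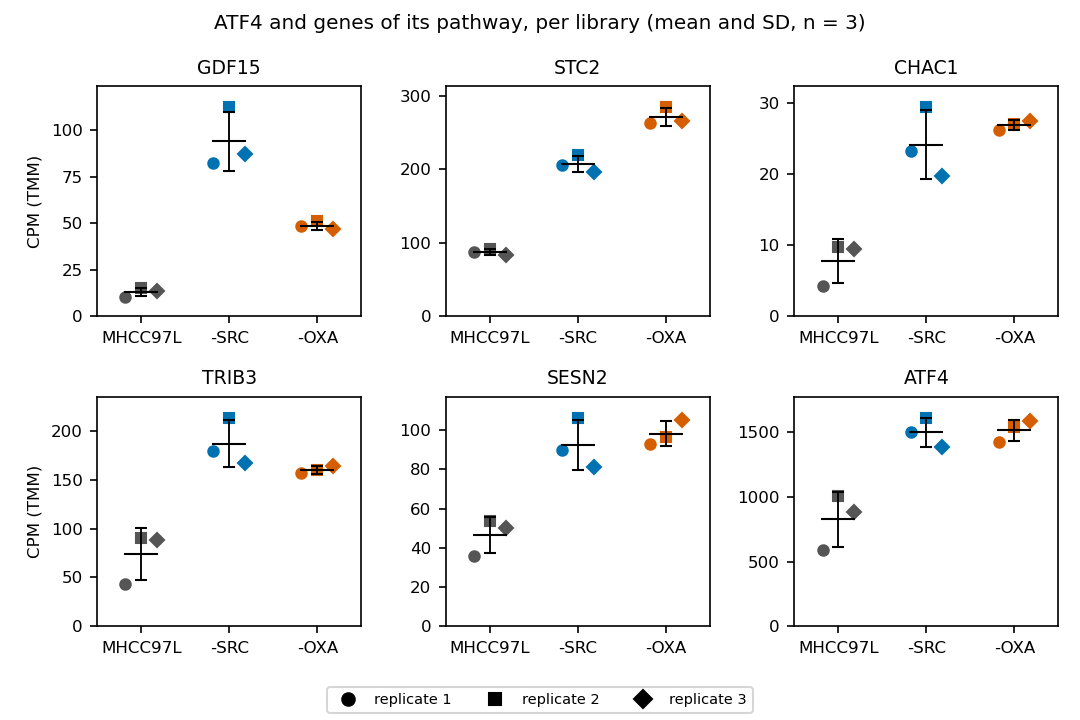
Level in CPM (linear axes from 0) of GDF15, STC2, CHAC1, TRIB3, SESN2 and ATF4 in each library; symbols mark the replicate number, and the horizontal line and bar give the mean and SD of 3 libraries. In all 6 panels every library of both resistant lines lies above every MHCC97L library.

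Among the transcription factors, ATF4 is the effector of the integrated stress response. It had 592, 1009 and 886 CPM in MHCC97L, 1505, 1614 and 1386 CPM in MHCC97L-SRC and 1428, 1540.4 and 1586 CPM in MHCC97L-OXA. Both resistant lines lay above MHCC97L without overlap and overlapped each other. ATF4 had a log2 fold change of 0.82 for MHCC97L-SRC (SE 0.26, edgeR adjusted p = 0.111) and 0.82 for MHCC97L-OXA (SE 0.24, edgeR adjusted p = 0.159), so neither passed the test. Without MHCC97L replicate 1 both passed, at 0.67 (edgeR adjusted p = 0.0447) and 0.73 (edgeR adjusted p = 0.00397). Both also passed without MHCC97L replicate 2. Neither passed without MHCC97L replicate 3 or any 1 library of the resistant line (edgeR adjusted p = 0.156 to 0.302 in MHCC97L-SRC).

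DDIT3 encodes CHOP, the factor tied to cell death in prolonged ER stress. It was low throughout, with 10.2, 7.28 and 5.75 CPM in MHCC97L, 6.05, 7.41 and 9.72 CPM in MHCC97L-SRC and 11.5, 12.03 and 12.8 CPM in MHCC97L-OXA. MHCC97L-SRC spanned much the same range as MHCC97L, and the 3 MHCC97L-OXA libraries were above all others. DDIT3 had a log2 fold change of -0.05 for MHCC97L-SRC (SE 0.43, edgeR adjusted p = 0.942), a sign that turned with the scaling of DESeq2 (0.05) and without MHCC97L replicate 1 (0.26), and 0.58 in MHCC97L-OXA (SE 0.36, edgeR adjusted p = 0.328). DDIT3 passed in MHCC97L-OXA without MHCC97L replicate 1, at 0.95 (edgeR adjusted p = 0.0283).

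CEBPB, a bZIP factor that can pair with ATF4 and CHOP, had 107, 202 and 204 CPM in MHCC97L, 301, 423 and 332 CPM in MHCC97L-SRC and 324, 347 and 363 CPM in MHCC97L-OXA. The log2 fold changes of 1.00 (SE 0.29, edgeR adjusted p = 0.102) and 0.96 (SE 0.26, edgeR adjusted p = 0.148) did not pass. CEBPB passed in both lines without MHCC97L replicate 1, at 0.80 (edgeR adjusted p = 0.0375) and 0.81 (edgeR adjusted p = 0.00279). It also passed in both without MHCC97L replicate 2, and in neither without MHCC97L replicate 3 or any 1 library of the resistant line. XBP1, whose mRNA is the substrate of IRE1, had 88.8, 138 and 98.9 CPM in MHCC97L, 133, 102 and 153 CPM in MHCC97L-SRC and 180.1, 145 and 143 CPM in MHCC97L-OXA. Only MHCC97L-OXA was clear of MHCC97L, at a log2 fold change of 0.48 (SE 0.22, edgeR adjusted p = 0.237) against 0.21 in MHCC97L-SRC (SE 0.26, edgeR adjusted p = 0.587). NUPR1, a small stress-induced chromatin factor, overlapped between MHCC97L and each resistant line, with means of 204, 229 and 258 CPM in MHCC97L, MHCC97L-SRC and MHCC97L-OXA.

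The regulators and feedback genes were the group with the largest median change after the secreted factors, at a log2 of 1.12 in MHCC97L-SRC and 1.05 in MHCC97L-OXA over 4 genes. CHAC1, an enzyme that breaks down glutathione and a sensitive ATF4 pathway target, had 4.25, 9.69 and 9.41 CPM in MHCC97L against 23.3, 29.4 and 19.8 CPM in MHCC97L-SRC and 26.2, 27.0 and 27.5 CPM in MHCC97L-OXA. The lowest library of a resistant line was thus above every MHCC97L library. The log2 fold changes were 1.60 (SE 0.43, edgeR adjusted p = 0.0913) and 1.74 (SE 0.39, edgeR adjusted p = 0.0865).

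TRIB3, a pseudokinase that binds ATF4 and CHOP and restrains them, had 43.6, 90.0 and 88.1 CPM in MHCC97L, 179, 214 and 167 CPM in MHCC97L-SRC and 157, 159.5 and 164 CPM in MHCC97L-OXA. Its log2 fold changes were 1.30 (SE 0.30, edgeR adjusted p = 0.0736) and 1.07 (SE 0.28, edgeR adjusted p = 0.137). SESN2, sestrin 2, which holds back mTORC1 when leucine is scarce, had 35.9, 53.5 and 50.04 CPM in MHCC97L, 89.8, 106 and 81.1 CPM in MHCC97L-SRC and 92.8, 96.3 and 105 CPM in MHCC97L-OXA. Its log2 fold changes were 0.95 (SE 0.26, edgeR adjusted p = 0.0913) and 1.03 (SE 0.22, edgeR adjusted p = 0.0797). PPP1R15A, the GADD34 subunit that brings a phosphatase to eIF2, overlapped between the lines at means of 51.4, 64.8 and 58.6 CPM in MHCC97L, MHCC97L-SRC and MHCC97L-OXA.

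None of CHAC1, TRIB3 and SESN2 passed edgeR's test with all libraries. The DESeq2 Wald test on the same libraries called all 3 in both lines, as it did ATF4 and CEBPB, and SHMT2 in MHCC97L-SRC. It called 8 members higher and 4 lower in MHCC97L-SRC (17.6% of all genes). In MHCC97L-OXA it called 7 higher and 0 lower (7.42% of all genes). Without MHCC97L replicate 1 all 3 passed edgeR's test. Their log2 fold changes in MHCC97L-SRC were then 1.35, 1.07 and 0.84 (edgeR adjusted p = 0.0283, 0.00878 and 0.0327). Those in MHCC97L-OXA were 1.55, 0.90 and 0.97 (edgeR adjusted p = 0.00213, 0.00142 and 0.00254). All 3 also passed in both lines without MHCC97L replicate 2. Those fits called members lower as well, 6 in MHCC97L-SRC and 5 in MHCC97L-OXA. None of the 3 passed in either line without MHCC97L replicate 3 or any 1 library of the resistant line.

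The enzymes of serine and one-carbon metabolism were split. PHGDH, which takes the first step from glycolysis to serine, had 426, 807 and 769 CPM in MHCC97L, 1129, 1414 and 1004 CPM in MHCC97L-SRC and 1006, 1085 and 1108 CPM in MHCC97L-OXA. SHMT2, the mitochondrial enzyme that turns serine into glycine, had 237, 466 and 457 CPM in MHCC97L, 744, 954 and 624 CPM in MHCC97L-SRC and 627, 676 and 682 CPM in MHCC97L-OXA. Neither gene overlapped between MHCC97L and a resistant line, and neither passed the test: the log2 fold changes were 0.78 (SE 0.29, edgeR adjusted p = 0.132) and 0.63 (SE 0.26, edgeR adjusted p = 0.216) for PHGDH, and 0.96 (SE 0.31, edgeR adjusted p = 0.112) and 0.73 (SE 0.27, edgeR adjusted p = 0.203) for SHMT2. Both passed in MHCC97L-OXA without MHCC97L replicate 1, PHGDH at 0.49 (edgeR adjusted p = 0.00851) and SHMT2 at 0.57 (edgeR adjusted p = 0.00513). In MHCC97L-SRC they were then at 0.59 (edgeR adjusted p = 0.0976) and 0.75 (edgeR adjusted p = 0.0612).

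PSAT1 and PSPH, which complete serine synthesis, and MTHFD2 and ALDH1L2, mitochondrial enzymes of folate metabolism, all overlapped between MHCC97L and each resistant line. PSAT1 averaged 155, 171 and 193 CPM and PSPH 84.8, 90.6 and 85.6 CPM in MHCC97L, MHCC97L-SRC and MHCC97L-OXA. MTHFD2 had 114 CPM in MHCC97L replicate 1 but 40.2 and 25.3 CPM in the other MHCC97L libraries, and ALDH1L2 had 44.3 CPM there but 5.17 and 15.1 CPM in the others. MHCC97L replicate 1 was thus the highest of the 9 libraries for both genes. The log2 fold changes of MTHFD2, -0.57 in MHCC97L-SRC and -0.24 in MHCC97L-OXA, turned to 0.37 and 0.75 without that library, and those of ALDH1L2, -0.96 and -0.44, turned to 0.19 and 0.76.

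ASNS, asparagine synthetase and a classical ATF4 target, had 69.9, 48.1 and 29.2 CPM in MHCC97L, 60.0, 29.8 and 88.1 CPM in MHCC97L-SRC and 70.3, 74.8 and 65.4 CPM in MHCC97L-OXA. The ranges of MHCC97L and MHCC97L-SRC overlapped, with MHCC97L-SRC replicate 3 the highest of the 9 libraries, and MHCC97L-OXA overlapped MHCC97L only through MHCC97L replicate 1. ASNS had a log2 fold change of 0.23 for MHCC97L-SRC (SE 0.45, edgeR adjusted p = 0.75) and 0.46 in MHCC97L-OXA (SE 0.32, edgeR adjusted p = 0.379). Without MHCC97L replicate 1 it was 0.63 (edgeR adjusted p = 0.398) and 0.92 (edgeR adjusted p = 0.026). CTH, which makes cysteine from cystathionine, had 11.8, 7.10 and 6.18 CPM in MHCC97L, 12.8, 9.13 and 16.01 CPM in MHCC97L-SRC and 17.3, 14.4 and 14.1 CPM in MHCC97L-OXA, and only the last line was clear of MHCC97L, at a log2 fold change of 0.81 (SE 0.38, edgeR adjusted p = 0.239) against 0.55 in MHCC97L-SRC (SE 0.44, edgeR adjusted p = 0.41). CTH passed in MHCC97L-OXA without MHCC97L replicate 1, at 1.25 (edgeR adjusted p = 0.0104), and was at 0.94 (edgeR adjusted p = 0.171) in MHCC97L-SRC.

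The amino acid transporters did not share the pattern of the ATF4 regulators. SLC7A5 and SLC3A2 encode the light and heavy chains of the leucine transporter LAT1-CD98. SLC7A5 had 2139, 4050.1 and 3961 CPM in MHCC97L, 2199, 2858 and 1948 CPM in MHCC97L-SRC and 2970.2, 3054 and 3085 CPM in MHCC97L-OXA. On the log2 scale SLC7A5 differed by -0.58 for MHCC97L-SRC (SE 0.32, edgeR adjusted p = 0.246) and -0.21 in MHCC97L-OXA (SE 0.28, edgeR adjusted p = 0.652). Without MHCC97L replicate 1, the lowest MHCC97L library for this gene, it was -0.77 (edgeR adjusted p = 0.0489) and -0.35 (edgeR adjusted p = 0.0122).

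SLC3A2 had 537, 1021 and 1067 CPM in MHCC97L, 670.1, 912 and 649 CPM in MHCC97L-SRC and 894, 902 and 927 CPM in MHCC97L-OXA. Its log2 fold change in MHCC97L-SRC was -0.28 (SE 0.30, edgeR adjusted p = 0.551), and MHCC97L-OXA lay inside the range of MHCC97L. SLC7A1, the cationic amino acid transporter CAT1, overlapped in both comparisons, with means of 230.4, 275 and 288 CPM in MHCC97L, MHCC97L-SRC and MHCC97L-OXA. SLC38A2, the SNAT2 glutamine and alanine carrier, had 531, 39.8 and 172 CPM in MHCC97L, 59.6, 58.8 and 61.3 CPM in MHCC97L-SRC and 67.9, 89.8 and 107 CPM in MHCC97L-OXA. The MHCC97L libraries straddled both resistant lines, and the log2 fold changes of -2.11 (SE 0.74, edgeR adjusted p = 0.122) and -1.56 (SE 0.76, edgeR adjusted p = 0.247) became -0.82 and -0.23 without MHCC97L replicate 1.

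**Figure D3:**
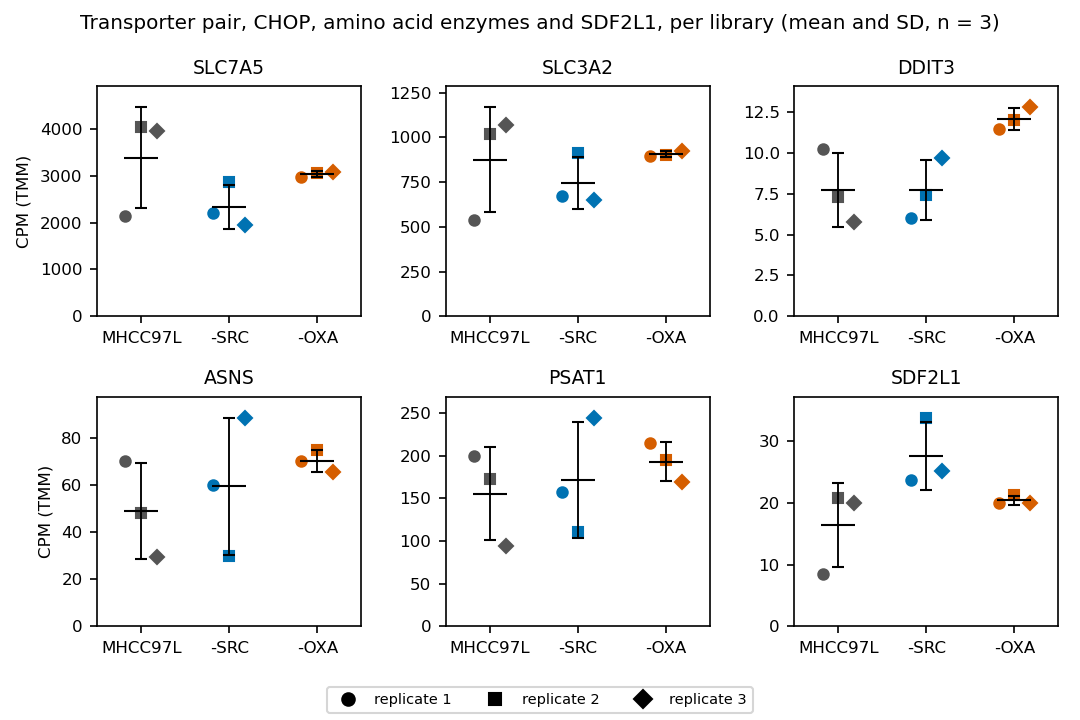
Level in CPM (linear axes from 0) of SLC7A5, SLC3A2, DDIT3, ASNS, PSAT1 and SDF2L1 in each library, with the mean and SD of 3 libraries. The MHCC97L-OXA libraries lie at 2970.2 to 3085 CPM for SLC7A5, above all 3 MHCC97L-SRC libraries, and MHCC97L-SRC ranges from 29.8 to 88.1 CPM for ASNS.

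Of the 3 ER sensors, 0 were called by edgeR in either line, with 1 at an unadjusted p under 0.05 in each line (ATF6) and 1 called by DESeq2 in MHCC97L-SRC. ERN1 (IRE1) had 4.64, 5.87 and 3.22 CPM in MHCC97L, 6.11, 4.23 and 7.84 CPM in MHCC97L-SRC and 6.91, 6.93 and 7.65 CPM in MHCC97L-OXA. Its log2 fold change was 0.37 in MHCC97L-SRC (SE 0.45, edgeR adjusted p = 0.596) and 0.60 in MHCC97L-OXA (SE 0.38, edgeR adjusted p = 0.337), and MHCC97L-OXA alone did not overlap MHCC97L. EIF2AK3 (PERK) had 15.96, 1.59 and 5.54 CPM in MHCC97L, a range that took in all libraries of MHCC97L-SRC (3.26, 4.63 and 4.69 CPM) and of MHCC97L-OXA (3.29, 4.49 and 5.04 CPM). Its log2 fold changes of -0.94 (SE 0.74, edgeR adjusted p = 0.403) and -0.92 (SE 0.74, edgeR adjusted p = 0.439) turned to 0.24 and 0.30 without MHCC97L replicate 1.

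ATF6 had 79.4, 14.4 and 18.9 CPM in MHCC97L, 10.7, 9.59 and 12.9 CPM in MHCC97L-SRC and 11.9, 12.1 and 16.2 CPM in MHCC97L-OXA. It was the 1 member whose MHCC97L-SRC libraries all lay below MHCC97L. ATF6 had a log2 fold change of -1.82 (SE 0.64, edgeR adjusted p = 0.124) in MHCC97L-SRC and -1.56 (SE 0.64, edgeR adjusted p = 0.215) in MHCC97L-OXA, and -0.57 (edgeR adjusted p = 0.301) and -0.26 (edgeR adjusted p = 0.493) without MHCC97L replicate 1.

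The ER chaperones and foldases, the readout of the ATF6 and XBP1 arms, had median log2 fold changes of -0.15 in MHCC97L-SRC and -0.05 in MHCC97L-OXA over 9 genes, and 0 of them passed edgeR's adjusted p in either line (2 and 1 at an unadjusted p under 0.05, 1 and 0 by DESeq2). HSPA5 encodes BiP, the Hsp70 of the ER lumen whose release from the sensors starts the response. It had 801 CPM in MHCC97L replicate 1 but 220.3 and 216 CPM in replicates 2 and 3, against 219, 185 and 290.4 CPM in MHCC97L-SRC and 277, 279.6 and 246 CPM in MHCC97L-OXA. The 2 lower MHCC97L libraries sat within the range of MHCC97L-SRC and below MHCC97L-OXA. The log2 fold changes of -0.89 (SE 0.51, edgeR adjusted p = 0.261) and -0.69 (SE 0.50, edgeR adjusted p = 0.389) became 0.10 (edgeR adjusted p = 0.829) and 0.34 (edgeR adjusted p = 0.0225) without MHCC97L replicate 1, so the direction of BiP in both lines was set by that library.

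HSP90B1 (GRP94) had 366, 59.2 and 221 CPM in MHCC97L, 99.5, 97.9 and 85.7 CPM in MHCC97L-SRC and 100.1, 116 and 126 CPM in MHCC97L-OXA. Here 2 of the 3 MHCC97L libraries were above both lines and the third was below. The log2 fold changes were -1.25 (SE 0.54, edgeR adjusted p = 0.165) and -0.99 (SE 0.55, edgeR adjusted p = 0.284), and became -0.57 and -0.27 without MHCC97L replicate 1. DNAJC3, the co-chaperone p58IPK, was near the bottom of the range, with 16.7, 1.47 and 7.58 CPM in MHCC97L, 2.55, 1.32 and 1.77 CPM in MHCC97L-SRC and 1.78, 2.60 and 2.66 CPM in MHCC97L-OXA. Its log2 fold changes of -2.25 (SE 0.80, edgeR adjusted p = 0.125) and -1.95 (SE 0.78, edgeR adjusted p = 0.211) became -1.26 and -0.91 without MHCC97L replicate 1.

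Of the remaining chaperones, CALR and the disulfide isomerases PDIA3, PDIA4 and PDIA6 had log2 fold changes from -0.15 to 0.11 in both lines. CALR (calreticulin) averaged 2581, 2619 and 2584 CPM in MHCC97L, MHCC97L-SRC and MHCC97L-OXA. PDIA3, PDIA4 and PDIA6 averaged 485, 705 and 269 CPM in MHCC97L, 452, 676 and 269.8 CPM in MHCC97L-SRC and 516, 788 and 285 CPM in MHCC97L-OXA, and each overlapped between MHCC97L and the resistant lines. PDIA3 was at 0.32 and 0.55 without MHCC97L replicate 1 (edgeR adjusted p = 0.475 and 0.053). DNAJB9, an IRE1-XBP1 target that binds BiP, ranged from 1.29 to 8.20 CPM in MHCC97L and from 1.31 to 3.57 CPM in the resistant lines. Its log2 fold changes of -0.98 (SE 0.75, edgeR adjusted p = 0.386) and -0.44 (SE 0.69, edgeR adjusted p = 0.702) turned to 0.30 and 0.88 without MHCC97L replicate 1. SDF2L1, a partner of ER DnaJ proteins, was above MHCC97L in every MHCC97L-SRC library, with 23.8, 33.9 and 25.2 CPM against 8.55, 20.8 and 19.9 CPM (log2 0.71, SE 0.41, edgeR adjusted p = 0.264).

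Of the degradation genes, HERPUD1, which helps to assemble the HRD1 ubiquitin ligase complex, had 86.2, 106 and 78.5 CPM in MHCC97L, 123, 125 and 130.3 CPM in MHCC97L-SRC and 140.2, 118 and 128 CPM in MHCC97L-OXA. Both lines were clear of MHCC97L, by less than the test required (log2 0.44 and 0.46, edgeR adjusted p = 0.203 and 0.219). HERPUD1 passed in MHCC97L-OXA without MHCC97L replicate 1, at 0.54 (edgeR adjusted p = 0.0403), and was at 0.46 (edgeR adjusted p = 0.179) in MHCC97L-SRC. SEL1L, the HRD1 adaptor, had 51.6, 5.70 and 24.0 CPM in MHCC97L, 6.64, 9.73 and 5.30 CPM in MHCC97L-SRC and 8.59, 10.2 and 10.8 CPM in MHCC97L-OXA. Its log2 fold changes of -1.97 (SE 0.71, edgeR adjusted p = 0.127) and -1.53 (SE 0.68, edgeR adjusted p = 0.228) became -1.04 and -0.56 without MHCC97L replicate 1. EDEM1, which marks misfolded glycoproteins, overlapped, with means of 43.4, 32.5 and 32.3 CPM in MHCC97L, MHCC97L-SRC and MHCC97L-OXA, and its log2 fold changes of -0.47 and -0.49 turned to 0.20 and 0.24 without that library.

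**Figure D4:**
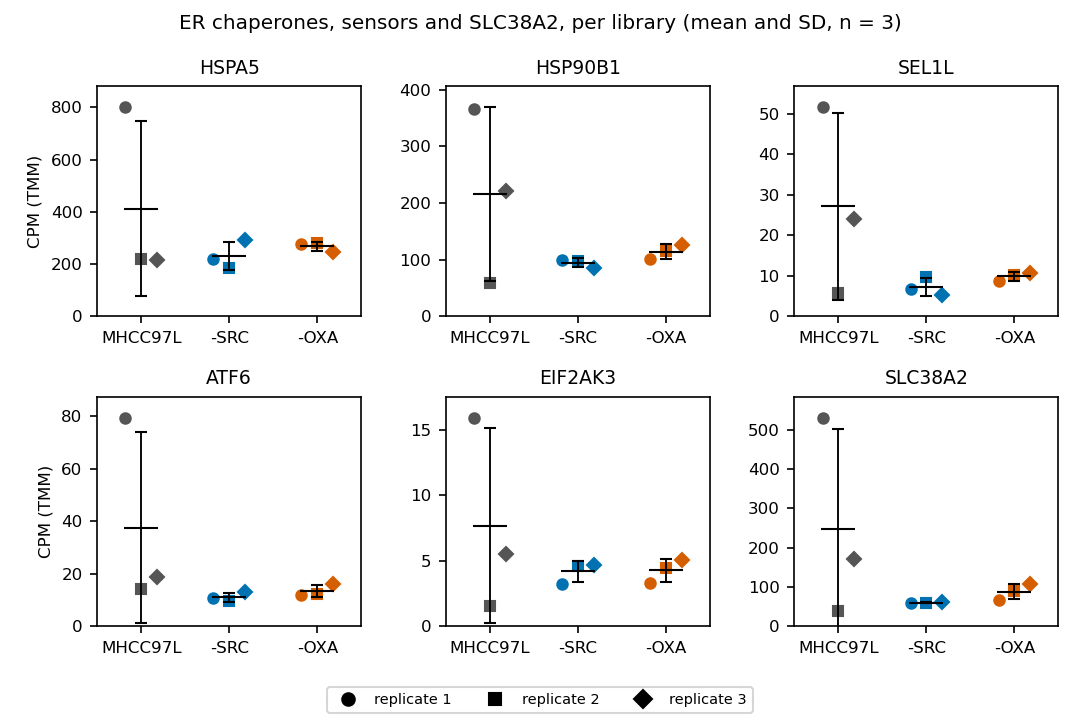
Level in CPM (linear axes from 0, on which the lower bar of SLC38A2 in MHCC97L is cut off) of HSPA5, HSP90B1, SEL1L, ATF6, EIF2AK3 and SLC38A2 in each library, with the mean and SD of 3 libraries. MHCC97L replicate 1 (circle) is the highest of the 9 libraries in all 6 panels, at 801 CPM for HSPA5 and 531 CPM for SLC38A2.

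The members' changes followed the GC content of their transcripts. Across the 38 members, which share their libraries, the log2 fold change and GC content of the longest transcript had a Spearman correlation of 0.75 in MHCC97L-SRC and 0.68 in MHCC97L-OXA. In MHCC97L replicate 1 the members' deviation from the mean of all libraries had a correlation of -0.90 with GC content, beside -0.78 over 12126 genes. The trend with GC content was thus not particular to the members. CEBPB (66.2% GC), SDF2L1 (65.5%), GDF15 (62.9%), CHAC1 (62.6%), SLC7A5 (61.1%) and TRIB3 (60.9%) stood at the GC-rich end. SLC38A2 (38.1%), SEL1L (39.4%) and DNAJC3 (39.9%) stood at the other, while STC2 (51.7%) was near the members' median of 49.7%. The fits were therefore repeated with offsets for GC content and transcript length, estimated within each library.

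With the offsets, 11 members were called in MHCC97L-SRC, beside 10.6% of all genes, 9 of them higher (ATF4, CEBPB, TRIB3, CHAC1, SESN2, SHMT2, CTH, GDF15 and STC2) and 2 lower (SLC7A5 and SLC3A2). In MHCC97L-OXA, 10 were called, all higher (ATF4, CEBPB, TRIB3, CHAC1, SESN2, SHMT2, ASNS, CTH, GDF15 and STC2), beside 12.9% of all genes. The log2 fold change of GDF15 was 2.19 and 1.38 in the 2 lines, that of STC2 1.20 and 1.58, and that of ATF4 0.42 (edgeR adjusted p = 0.0371) and 0.53 (edgeR adjusted p = 0.0142). Of the 19 members below the median GC content, 18 shifted upwards in each line, and 11 in MHCC97L-SRC and 9 in MHCC97L-OXA came nearer to 0. SLC38A2 came to -0.40 and -0.19, ATF6 to -0.41 and -0.41 and HSP90B1 to -0.06 and -0.09. Others moved away from 0, XBP1 to 0.75 and 0.78 and CTH to 1.18 and 1.27, and MTHFD2 crossed it, to 0.51 and 0.67. Signs turned for 8 of the 38 members in each line with the offsets. Without MHCC97L replicate 1, and with no offsets, 8 members were called in MHCC97L-SRC (7 higher, 1 lower; 5.52% of all genes) and 15 in MHCC97L-OXA (14 higher, 1 lower; 18.5% of all genes). None was then lower in either line by the unadjusted p and fold, and signs turned for 11 and 7 members. Without MHCC97L replicate 2, 14 members were called in MHCC97L-SRC (8 higher and 6 lower, 27.8% of all genes). In MHCC97L-OXA 12 were called (7 higher and 5 lower, 22.1% of all genes). ATF6, SLC38A2, HSP90B1, DNAJC3 and SEL1L were then called lower in both lines, and ALDH1L2 in MHCC97L-SRC. Without MHCC97L replicate 3 or any 1 MHCC97L-SRC library, only GDF15 was called in MHCC97L-SRC (0.18% to 0.563% of all genes). Without MHCC97L replicate 3 or any 1 MHCC97L-OXA library, 0 members were called in MHCC97L-OXA (0.0163% to 0.0164% of all genes).

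**Figure D5:**
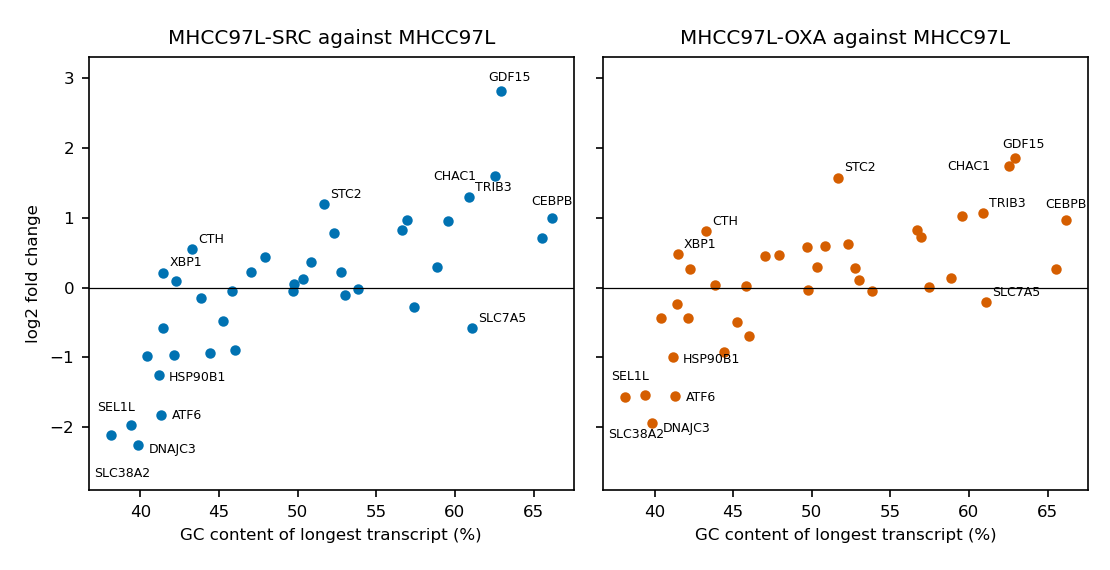
Log2 fold change against MHCC97L (vertical axis) and GC content of the longest transcript in percent (horizontal axis) for the 38 members, in MHCC97L-SRC on the left and MHCC97L-OXA on the right, with selected members named. The points tend to climb with GC content from SLC38A2 at 38.1% GC, with Spearman correlations of 0.75 and 0.68. GDF15 at 62.9% GC is the highest point, above CEBPB at 66.2% GC, and SLC7A5 lies below the other GC-rich members.

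The second question was whether the 2 resistant lines differed from each other, a comparison that leaves MHCC97L out. GDF15 was higher in MHCC97L-SRC and was the 1 member called, beside 4.64% of the 11994 genes tested. STC2 and the transporter genes SLC7A5 and SLC38A2 were lower in every MHCC97L-SRC library without passing the test. By edgeR, 0 members passed the unadjusted p with a log2 fold change past 1, in either direction, and 0 by DESeq2 (background 1.49% higher and 2.52% lower). The libraries did not overlap for 3 members that were higher in MHCC97L-SRC (7.89% of members, background 13.3%), namely GDF15, TRIB3 and SDF2L1, and for 7 that were lower (18.4%, background 13.1%), namely DDIT3, ALDH1L2, SLC7A5, SLC38A2, STC2, HSP90B1 and PDIA4. The members' median log2 fold change was -0.18 and that of all genes -0.02, and 7 members had an unadjusted p under 0.05 (18.4%, background 19.5%).

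From the values given above, GDF15 averaged 94.0 ± 16.1 CPM in MHCC97L-SRC and 48.7 ± 2.22 CPM in MHCC97L-OXA (SD, n = 3 each), a log2 fold change of 0.95 (SE 0.14, edgeR adjusted p = 0.00437). It kept this call with any 1 library left out (0.80 to 1.04) and lost it when all 9 libraries shared 1 fit (0.96, edgeR adjusted p = 0.0819). STC2 went the other way, at 207 ± 11.3 CPM against 271 ± 11.7 CPM (SD, n = 3 each; log2 -0.38, SE 0.10, edgeR adjusted p = 0.0607). The 2 secreted factors thus had opposite orders in the resistant lines, of which the GDF15 order passed the test. STC2 passed with the offsets for GC content (log2 -0.39, edgeR adjusted p = 0.0351), on log2(FPKM + 1) and log2(FPKM + 0.1) (limma adjusted p = 0.0261 and 0.0295) and without MHCC97L-SRC replicate 2 (log2 -0.43, edgeR adjusted p = 0.00796). Over all alternatives its adjusted p ran from 0.00796 to 0.522.

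SLC38A2 differed by a log2 fold change of -0.55 (SE 0.17, edgeR adjusted p = 0.0959), SLC7A5 by -0.38 (SE 0.13, edgeR adjusted p = 0.157), SLC3A2 by -0.28 (SE 0.13, edgeR adjusted p = 0.272) and DDIT3 by -0.64 (SE 0.22, edgeR adjusted p = 0.148). With the offsets for GC content, SLC7A5 and SLC3A2 passed, at -0.53 (edgeR adjusted p = 0.00217) and -0.40 (edgeR adjusted p = 0.014), while SLC38A2 was at -0.21 (edgeR adjusted p = 0.321). SDF2L1 was at 0.44 (SE 0.17, edgeR adjusted p = 0.194), TRIB3 at 0.23 (SE 0.11, edgeR adjusted p = 0.307) and ALDH1L2 at -0.53 (SE 0.19, edgeR adjusted p = 0.167). ATF4 itself was at -0.01 (SE 0.10, edgeR adjusted p = 0.97), a sign that turned with the scaling of DESeq2 (0.01). Without MHCC97L-SRC replicate 2 the members called numbered 4 (10.5%, beside 8.51% of all genes), and without replicate 3 they numbered 5 (13.2%, beside 13.3%), against 1 with all libraries.

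Compared per length, as the deposited FPKM values, which are scaled to gene length and library size, CALR was the most abundant member in all 3 lines, with means of 737, 707 and 737 FPKM in MHCC97L, MHCC97L-SRC and MHCC97L-OXA. SLC7A5 followed at 592, 371 and 509 FPKM and SLC3A2 at 397, 306 and 390 FPKM. GDF15 moved from 7.14 ± 0.52 FPKM in MHCC97L to 47.5 ± 5.35 FPKM in MHCC97L-SRC and 26.2 ± 1.28 FPKM in MHCC97L-OXA (SD, n = 3 each). In MHCC97L-SRC it thereby came close to the level of HSPA5, at 44.0 ± 13.2 FPKM, from which it did not differ beyond their spread. ERN1 (0.37, 0.43 and 0.55 FPKM) and, in the resistant lines, DNAJC3 (0.26 and 0.36 FPKM) were the least abundant.

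Other genes of the same pathways gave few calls by edgeR's adjusted p. Of 30 further ATF4 pathway genes, 14 in MHCC97L-SRC and 16 in MHCC97L-OXA had an unadjusted p under 0.05 (29.5% and 22.4% of all genes). DESeq2 called 10 and 8 (17.6% and 7.42% of all genes). Above MHCC97L in every library were 10 and 12 (18.7% and 19.6% of all genes), and below it 1 and 2 (11.2% and 8.42%). By the unadjusted p and fold, 3 and 5 were higher (5.74% and 4.63% of all genes) and 6 and 7 lower (18.9% and 11.5%). Of the lower genes, XPOT, EPRS, IARS, NARS and TARS overlapped in both comparisons, with MHCC97L replicate 1 the highest library. TARS had 577 CPM there against 53.0 and 182 CPM in MHCC97L replicates 2 and 3. SLC7A11 and, in MHCC97L-OXA, ATF5 did not overlap. By edgeR's adjusted p, 1 was called in MHCC97L-SRC, where SLC7A11 fell. It encodes the cystine carrier xCT and had 67.7, 21.8 and 49.3 CPM in MHCC97L against 6.05, 6.15 and 6.41 CPM in MHCC97L-SRC (log2 -2.96, SE 0.47, edgeR adjusted p = 0.0199). In MHCC97L-OXA SLC7A11 was at 5.86, 5.98 and 11.5 CPM, also below every MHCC97L library, and did not pass (log2 -2.64, SE 0.51, edgeR adjusted p = 0.06). In MHCC97L-OXA 1 rose, VEGFA, the angiogenic growth factor, with 133, 182 and 151 CPM in MHCC97L against 357, 399 and 358 CPM (log2 1.21, SE 0.19, edgeR adjusted p = 0.0325). Between the resistant lines, JDP2, a bZIP repressor, and VEGFA were lower in MHCC97L-SRC (log2 -0.76 and -0.55, SE 0.12 and 0.10, edgeR adjusted p = 0.00712 and 0.0129). The median log2 fold change of the 30 genes was -0.16 in MHCC97L-SRC and 0.21 in MHCC97L-OXA, with MHCC97L replicate 1 included.

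Of the 10 genes of the eIF2 machinery, which include the other eIF2 kinases and the exchange factor eIF2B, 0 were called by edgeR in any comparison. At an unadjusted p under 0.05 there were 4 in MHCC97L-SRC, 1 in MHCC97L-OXA and 1 between them, DESeq2 called 1, 0 and 0, and the medians against MHCC97L were -0.78 and -0.66. These medians include MHCC97L replicate 1, and medians without it are not given. EIF2AK2 had 86.0 CPM there but 11.4 and 30.6 CPM in the other MHCC97L libraries. PPP1R15B had 321 CPM there against 90.8 and 86.3 CPM. EIF2B4 went the other way, with 40.0 CPM there against 71.9 and 63.9 CPM. Of 33 further ER folding genes, edgeR called 0 in either line against MHCC97L (13 and 4 at an unadjusted p under 0.05, 5 and 2 by DESeq2), at medians of -0.05 and -0.06, and 1, DNAJC10, a disulfide reductase of the ER, was lower in MHCC97L-SRC than in MHCC97L-OXA (log2 -1.14, SE 0.27, edgeR adjusted p = 0.0427). Of 10 cytosolic heat shock genes, HSP90AA1, the inducible Hsp90, fell in MHCC97L-SRC, with 744, 131 and 620 CPM in MHCC97L against 63.7, 72.4 and 52.5 CPM (log2 -3.05, SE 0.58, edgeR adjusted p = 0.0368), and edgeR called 0 in the other comparisons (4 and 3 at an unadjusted p under 0.05, 3 and 0 by DESeq2). Of all genes tested, 29.5% in MHCC97L-SRC, 22.4% in MHCC97L-OXA and 19.5% between them had an unadjusted p under 0.05. DESeq2 called 17.6%, 7.42% and 7% of them.

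The calls of these other genes also depended on single libraries. SLC7A11 and HSP90AA1 kept theirs without MHCC97L replicate 1 (log2 -2.51 and -2.58) and lost them without MHCC97L replicate 3 or any 1 MHCC97L-SRC library (edgeR adjusted p = 0.0655 to 0.0909 and 0.055 to 0.133). VEGFA lost its call in MHCC97L-OXA without MHCC97L replicate 3 or any 1 MHCC97L-OXA library (0.156 to 0.279), and its call between the resistant lines without any 1 MHCC97L-OXA library or MHCC97L-SRC replicate 1 (0.0609 to 0.122). JDP2 lost its call without MHCC97L-OXA replicate 2 (0.0638) or MHCC97L-SRC replicate 1 (0.0544), and DNAJC10 without MHCC97L-OXA replicate 2 or 3 or MHCC97L-SRC replicate 1 (0.165 to 0.183).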

How the data were processed

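Poly(A) RNA of 9 libraries was made with the Illumina TruSeq Stranded mRNA kit and read from both ends on Illumina instruments. The submitters' processing notes name Trimmomatic 0.36, HISAT2 2.2.1.0 and the build GRCh38.p12; the counting program and its strand setting are not given in the sources used here. The authors deposited raw counts per gene, without normalization, and FPKM values for the same genes and libraries, normalized by the authors to gene length and library size. Counts were tested in R 4.3.3 with edgeR 4.0.16 (filterByExpr with a minimum count of 10, TMM, glmQLFit and glmQLFTest on the 6 libraries of the 2 lines compared, Benjamini-Hochberg adjustment over all genes tested, threshold 0.05); the code was tested on simulated data. Alternatives were DESeq2 1.42.0, its size factors, other filters, limma 3.58.1 on log2(FPKM + 1) and log2(FPKM + 0.1), a replicate block, all 9 libraries in 1 fit, each library left out, and offsets for GC content and length (natural splines, 5 degrees of freedom each), for which 19343 of 20030 genes were matched to a transcript. With 3 libraries against 3 an exact permutation test of a single gene cannot go below p = 0.1, so none was used. The members and gene lists were chosen with earlier results of these data known. The rule for named genes gave full values to members with an adjusted p under 0.05 and to ATF4, DDIT3, ASNS, TRIB3, HSPA5, XBP1, ERN1, EIF2AK3 and ATF6, and at most the 2 largest rises and falls of each other list; all further members described singly, among them CHAC1, SESN2, CEBPB, PHGDH, SHMT2, SLC7A5 and SLC38A2, were chosen after their values were seen. Promoters came from RefSeq (GRCh38.p14) and were matched by symbol.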

Additional observations from a re-analysis of the deposited data

Results flagged for a closer look

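GDF15 differed between the resistant lines in the direct test of MHCC97L-SRC against MHCC97L-OXA, at a log2 fold change of 0.95 (SE 0.14, edgeR adjusted p = 0.00437), with 3 of 3 MHCC97L-SRC libraries above 3 of 3 MHCC97L-OXA libraries. This test is at the same time the test of the difference between the lines' changes from MHCC97L, since both changes are measured against the same MHCC97L libraries. Across the alternatives the adjusted p ranged from 2.96e-06 with the DESeq2 Wald test to 0.0819 with all 9 libraries in 1 edgeR fit.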

How the results depend on the processing

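Counts of called members moved with the setting. Shares of all genes called are in parentheses. In MHCC97L-SRC, 2 became 12 with the DESeq2 Wald test (17.6%), 11 with GC content and length offsets (10.6%) and 8 with all 9 libraries in 1 fit (16%), which were 31.6%, 28.9% and 21.1% of members. In MHCC97L-OXA, 2 became 7 (7.42%), 10 (12.9%) and 5 (4.05%) under the same settings, 4 on log2(FPKM + 1) (2.09%) and 6 with the offsets and a replicate block (4.97%). Between the resistant lines, 1 became 2 on either FPKM scale (4.06% and 3.95%), 4 with the offsets (9.62%), 2 with the offsets and a replicate block (3.94%) and 0 with all 9 libraries in 1 fit (0.703%). Leaving out 1 library gave 1 to 14 (0.18% to 27.8%), 0 to 15 (0.0163% to 22.1%) and 1 to 5 (1.38% to 13.3%). At 0 to 15, the counts of 0 came without MHCC97L replicate 3 or any MHCC97L-OXA library, with 7 to 10 members at an unadjusted p under 0.05 and 7 called by the DESeq2 Wald test on all libraries. Members past unadjusted p and fold numbered 9 in MHCC97L-SRC and 4 on either FPKM scale and with the offsets, with or without the block; 7 in MHCC97L-OXA and 4 on log2(FPKM + 1) and with the offsets, with or without the block. Leaving out 1 library gave 4 to 16, 4 to 13 and 0 to 2. Same-numbered libraries were not treated as pairs in the main test, since the sources used here do not say whether they were prepared together. Their deviations had mean correlations of -0.09, 0.03 and -0.11 in the 3 comparisons, with single values from -0.63 to 0.42. In these comparisons 2, 2 and 1 of 6 libraries matched their own number best. The replicate block gave 4 called members in MHCC97L-SRC, with TRIB3 and SLC38A2 added, and 2 and 1 in the other comparisons.

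Over all 38 members, signs turned with the offsets for 8 in each comparison, and without MHCC97L replicate 1 for 11 in MHCC97L-SRC and 7 in MHCC97L-OXA. Every alternative was run for the members whose fold changes are discussed. DDIT3 in MHCC97L-SRC was at 0.048 with either use of DESeq2 scaling, and ATF4 between the resistant lines at 0.0094. EIF2AK3 was at 0.069 with the offsets in MHCC97L-SRC, and with the offsets and block at 0.20 there and 0.077 in MHCC97L-OXA; HSP90B1 was then at 0.0073 and 0.0021. In MHCC97L-SRC the offsets alone, and with the block, gave 0.44 and 0.50 (ALDH1L2), 0.296 and 0.31 (DNAJB9), 0.24 and 0.26 (EDEM1), 0.51 and 0.53 (MTHFD2) and 0.57 and 0.61 (PDIA3). In MHCC97L-OXA they gave 0.69 and 0.76 (ALDH1L2), 0.59 and 0.66 (DNAJB9), 0.12 and 0.14 (EDEM1) and 0.67 and 0.75 (MTHFD2). The block alone gave 0.073 (ALDH1L2), 0.015 (DNAJB9) and 0.066 (MTHFD2) there, and the FPKM scales 0.010 and 0.019 (MTHFD2). With a library left out, the log2 fold changes ran from -0.25 to 0.26 (DDIT3), -0.17 to 0.63 (ASNS), -1.20 to 0.10 (HSPA5) and -1.37 to 0.24 (EIF2AK3), -1.01 to 0.37 (MTHFD2), -1.37 to 0.19 (ALDH1L2), -0.40 to 0.32 (PDIA3), -1.47 to 0.30 (DNAJB9) and -0.78 to 0.20 (EDEM1) in MHCC97L-SRC, -0.997 to 0.34 (HSPA5), -1.33 to 0.30 (EIF2AK3), -0.60 to 0.75 (MTHFD2), -0.83 to 0.76 (ALDH1L2), -0.22 to 0.55 (PDIA3), -0.78 to 0.88 (DNAJB9) and -0.79 to 0.24 (EDEM1) in MHCC97L-OXA, and -0.070 to 0.052 (ATF4) between the lines. With all libraries kept, 625 of the other log2 fold changes stayed on their side of the threshold in the same direction, 58 came to pass it and 15 ceased to, among members only GDF15 between the resistant lines, with all 9 libraries in 1 fit. The causes were not tested. No member was near the limit that 3 counts set (0.148 to 0.199 CPM): DNAJC3, DNAJB9 and EIF2AK3, with the lowest libraries at 1.29 to 1.59 CPM, had standard errors of 0.69 to 0.80 against MHCC97L and 0.27 to 0.38 between the resistant lines.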
